A study of Rattus norvegicus with 24 samples.

Results

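The 10 genes described here are core components of the circadian clock, taken by symbol from a table of 35032 genes: *Arntl*, *Clock*, *Per1*, *Per2*, *Per3*, *Cry1*, *Cry2*, *Nr1d1*, *Nr1d2* and *Dbp*. Each was a single row of the table and was counted in all 24 libraries, with 271 to 4581 counts per gene and library. The study asked how surgical stress and electroacupuncture alter gene expression in 2 brain nuclei of the stress axis. Male Sprague-Dawley rats gave RNA of the hypothalamic paraventricular nucleus (PVN) and, from the amygdala, of its central nucleus (CEA), with 3 libraries in each of 8 groups. Normal controls (NC) were restrained but not operated. HT rats had part of the left liver lobe removed under isoflurane, with the same restraint. EA rats had the hepatectomy and received current through needles at Zusanli and Sanyinjiao on the day before and right after surgery. SEA rats had the hepatectomy and the needles without current. All rats were young males kept under equal light and dark periods, and brains were removed the day following the final stimulation. The methods state that brains were collected at the same time, but the hour of the day was not given in the sources used here. They give fewer rats than the 24 libraries, yet also state that the brain samples came from different animals. Whether a library held 1 animal or several was not given, so p-values measure the spread between libraries. Whether PVN and CEA libraries of a group shared rats cannot be told, and the region comparisons treated them as unrelated.

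The clock is a loop of transcription and repression that runs in nearly every cell. ARNTL (also called BMAL1) and CLOCK bind DNA together and switch on the *Per*, *Cry*, *Nr1d* and *Dbp* genes; PER and CRY proteins then shut that pair off, and NR1D1 and NR1D2 (the REV-ERB receptors) repress *Arntl*, so *Arntl* peaks when *Dbp* and *Nr1d1* are low. *Per1* in addition answers quickly to glucocorticoids and to neuronal activity, which makes it the member most exposed to acute stress.

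*Dbp* (ENSRNOG00000021027) lies on chromosome 1 from 101687855 to 101692846 on the plus strand, *Nr1d2* (ENSRNOG00000046912) on chromosome 15 from 8730871 to 8757165, plus strand, and *Arntl* (ENSRNOG00000014448) on chromosome 1 from 178039063 to 178137465, plus strand. These positions stand as the table gives them, and the table names no build. RefSeq promoter windows of the newer build GRCr8 were found for 9 of the 10 genes. *Cry1* had no entry. The 250 bases before each start were searched on both strands for 7 motifs: the canonical E-box CACGTG and the E-prime box CACGTT, which ARNTL and CLOCK bind, the D-box TTANGTAA bound by DBP, the elements TAGGTCA and TGGGTCA bound by the REV-ERB receptors, the cyclic AMP element TGACGTCA and the glucocorticoid response element. Sequences are shown for genes of 3 roles, the activator *Arntl*, the repressor *Per2* and the receptor *Nr1d1* (the second of its 2 starts). Each runs 5′ to 3′ over the 220 bases before the start, with the motif in capitals. The positions on GRCr8 are chr1:176766108-176766327 on the plus strand, chr9:99496994-99497213 on the minus strand and chr10:84229455-84229674 on the minus strand.
Arntl: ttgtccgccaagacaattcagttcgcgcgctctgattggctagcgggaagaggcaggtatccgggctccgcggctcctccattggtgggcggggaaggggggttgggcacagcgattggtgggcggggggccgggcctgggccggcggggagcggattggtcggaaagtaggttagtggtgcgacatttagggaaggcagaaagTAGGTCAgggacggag
Per2: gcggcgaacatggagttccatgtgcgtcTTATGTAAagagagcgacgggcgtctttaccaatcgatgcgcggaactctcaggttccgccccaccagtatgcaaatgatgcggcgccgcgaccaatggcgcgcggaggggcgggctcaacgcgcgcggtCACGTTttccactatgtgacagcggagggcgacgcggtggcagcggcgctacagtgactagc
Nr1d1: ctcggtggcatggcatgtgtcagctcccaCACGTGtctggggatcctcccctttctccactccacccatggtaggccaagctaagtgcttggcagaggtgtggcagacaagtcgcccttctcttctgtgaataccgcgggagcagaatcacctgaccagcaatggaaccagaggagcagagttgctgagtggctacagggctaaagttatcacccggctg
*Arntl* held TAGGTCA starting 16 bases before the start, a match found in 2.26% of 33469 RefSeq promoters. *Per2* held a D-box 192 bases and an E-prime box 62 bases before the start (2.04% and 4.07% of promoters). The second *Nr1d1* start had the palindromic E-box 191 bases upstream, a motif in 5.59% of promoters. The E-prime box also lay in the first *Nr1d1* window and in that of *Cry2*, on the opposite strand in both. None of these letters occurred in the windows of *Per1*, *Per3*, *Clock*, *Nr1d2* or *Dbp*.

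Total counts were 13152772 to 18607032 per library, and levels are given as CPM, counts scaled to library size with TMM factors. The summed markers of each tissue were higher where the label placed them, though single genes overlapped: *Prkcd* was at 14.5 to 157.5 CPM in the PVN and 20.1 to 551.7 CPM in the CEA. The 6 neuroendocrine genes summed to 417 to 1333 CPM in the PVN and 34.7 to 181 CPM in the CEA, and the 8 genes of the central amygdala and striatum to 424 to 519 CPM in the PVN and 2800 to 6881 CPM in the CEA. In the PVN, NC replicates 1 and 3 stood apart from the other 10 libraries on the first principal component of all genes (scores 49.5 and 36.8, against -12.7 to 0.377), while NC replicate 2 lay among the operated libraries at -7.20. *Gsk3b*, a clock kinase, shows this split, at 27.2 and 44.1 CPM in those 2 libraries and 80.4 to 108.7 CPM in the other PVN libraries. In the CEA, choroid plexus genes summed to 1067 CPM in NC 2, 377 CPM in EA 1 and 1805 CPM in SEA 2. In CEA EA replicate 2, 3.80% of counts were mitochondrial, against 10.1% to 14.4% in the other CEA libraries. The methods state that a set of the CEA EA group was removed from a network analysis for large differences, without saying which, and all CEA EA libraries were kept here. The operated comparisons are also given without PVN NC replicates 1 and 3 and without the 3 choroid plexus libraries, for the members with an unadjusted p under 0.05 and, in the CEA, for *Arntl* and *Nr1d2* too.

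**Figure D1:**
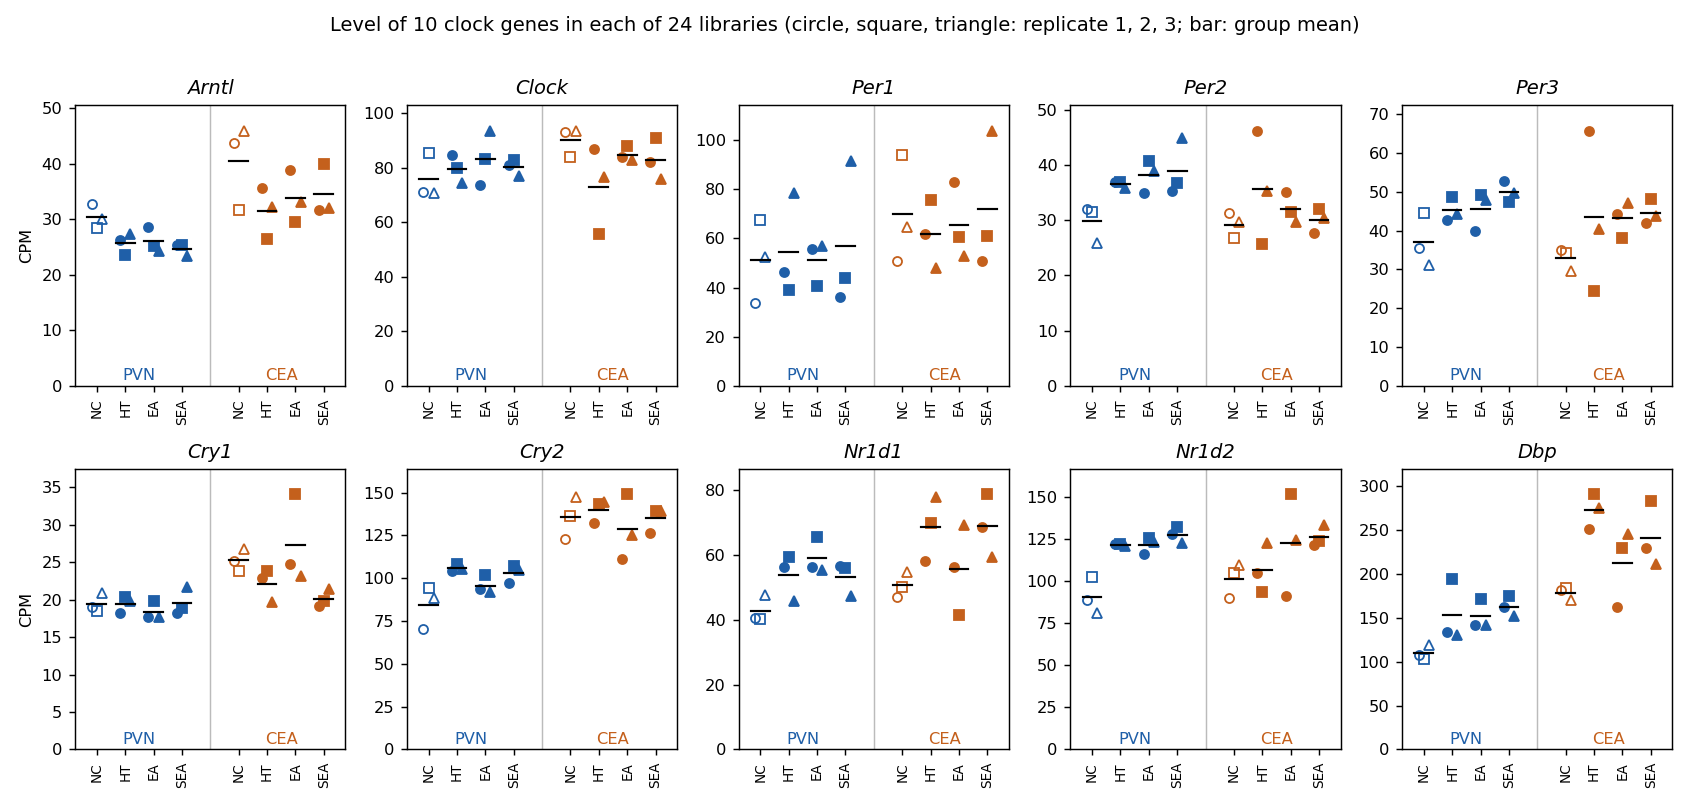
Level of the 10 clock genes in each library, in CPM (vertical axis, from 0), by region and treatment (horizontal axis); symbols mark replicate numbers, open symbols are NC libraries and bars are group means of 3 libraries. In the PVN the 3 NC libraries are the lowest 3 for *Dbp*, *Nr1d2* and *Per2*, while *Per1* is scattered within every group.

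In the PVN, 1 of the 10 clock genes, *Nr1d2*, passed the test between operated and NC rats, a call lost in 14 of 18 alternative fits. It rose 1.36-fold, from 90.6 ± 10.7 CPM in NC (SD, n = 3) to 124 ± 4.59 CPM over the operated libraries (SD, n = 9). *Dbp* was 110 ± 8.44 CPM in NC (SD, n = 3) and 156 ± 21.5 CPM in operated rats (SD, n = 9). *Arntl*, at 30.4 ± 2.21 and 25.5 ± 1.69 CPM, was the one member of these with a lower mean after surgery. Together 7 of 10 members had an unadjusted p under 0.05 in edgeR's quasi-likelihood test, beside 29.8% of all 17211 genes tested, and 1 of 10 had an adjusted p under 0.05, beside 0.0639%.

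Among the activators, *Arntl* was measured at 32.8, 28.5 and 30.1 CPM in the 3 NC libraries, 26.2, 23.6 and 27.4 CPM in HT, 28.6, 25.2 and 24.4 CPM in EA, and 25.3, 25.4 and 23.4 CPM in SEA. NC libraries were the highest 2 of the 12, and EA replicate 1 reached the level of NC replicate 2. The log2 fold change over all operated libraries was -0.26 (SE 0.0778, edgeR adjusted p = 0.0785). *Clock*, its partner, ranged from 70.9 to 85.4 CPM in NC and from 73.6 to 93.4 CPM in operated libraries, which overlapped through NC replicate 2 alone, with a log2 fold change of 0.09 (95% interval -0.08 to 0.27).

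Among the repressors, *Per2* was at 32.1, 31.6 and 25.8 CPM in NC and at 37.0, 36.9 and 35.9 CPM in HT. EA libraries had 34.9, 40.7 and 38.8 CPM and SEA libraries 35.3, 36.8 and 44.9 CPM. Every operated library was above every NC library, with a log2 fold change of 0.34 (SE 0.0898, edgeR adjusted p = 0.0778). *Per3* was at 35.5, 44.5 and 31.2 CPM in NC and 39.9 to 52.8 CPM after surgery, overlapping through NC replicate 2 (log2 fold change 0.34, SE 0.103, edgeR adjusted p = 0.0785). *Cry2*, a partner of the PER proteins, was at 70.4, 94.1 and 88.5 CPM in NC and 91.7 to 108.1 CPM after surgery (log2 fold change 0.26, SE 0.0801, edgeR adjusted p = 0.0785). Its groups overlapped through the same NC library, and the value was 0.15 without NC replicate 1. *Cry1* did not follow *Cry2*: its range was 18.5 to 20.8 CPM in NC and 17.6 to 21.7 CPM after surgery, with a 95% interval of -0.20 to 0.15 on the log2 scale.

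*Per1* stood apart from the other *Per* genes. It was at 33.9, 67.6 and 52.5 CPM in NC, 46.2, 38.8 and 78.5 CPM in HT, 55.9, 40.6 and 56.7 CPM in EA, and 36.0, 43.7 and 91.4 CPM in SEA. Each group held both low and high libraries, and the highest were HT replicate 3 and SEA replicate 3. The log2 fold change of 0.07 had the widest interval of the 10 genes, -0.57 to 0.72, so a difference of either sign was not detectable with these libraries.

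The REV-ERB receptors and the output gene *Dbp* had the largest fold changes, of which that of *Nr1d2* passed the test. *Nr1d1* was at 40.7, 40.4 and 47.6 CPM in NC, 56.4, 59.4 and 45.8 CPM in HT, 56.2, 65.5 and 55.3 CPM in EA, and 56.5, 56.0 and 47.3 CPM in SEA. The operated libraries HT replicate 3 and SEA replicate 3, fell within the NC range (log2 fold change 0.37, SE 0.0968, edgeR adjusted p = 0.0778). *Nr1d2* was at 88.9, 102.1 and 80.9 CPM in NC, 121.9, 122.0 and 120.9 CPM in HT, 115.9, 125.5 and 123.0 CPM in EA, and 127.9, 132.2 and 122.7 CPM in SEA. The groups did not overlap, and the 3 HT libraries were nearly equal (log2 fold change 0.44, SE 0.0676, edgeR adjusted p = 0.0466). *Dbp*, which encodes a transcription factor driven directly by ARNTL and CLOCK, was at 107.2, 103.0 and 119.2 CPM in NC, 134.3, 194.6 and 130.1 CPM in HT, 142.5, 171.9 and 141.6 CPM in EA, and 162.1, 174.9 and 152.1 CPM in SEA. All 9 operated libraries lay above all 3 NC libraries, and HT replicate 2 was the highest (log2 fold change 0.50, SE 0.118, edgeR adjusted p = 0.0772). Thus 3 of 10 members, *Per2*, *Nr1d2* and *Dbp*, were higher in every operated library, as were 2.16% of genes tested. The quotient of *Dbp* over *Arntl* within a library was 3.27, 3.62 and 3.97 in NC and 4.75 to 8.23 after surgery, without overlap; it was formed after the values were seen and was not tested.

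**Figure D2:**
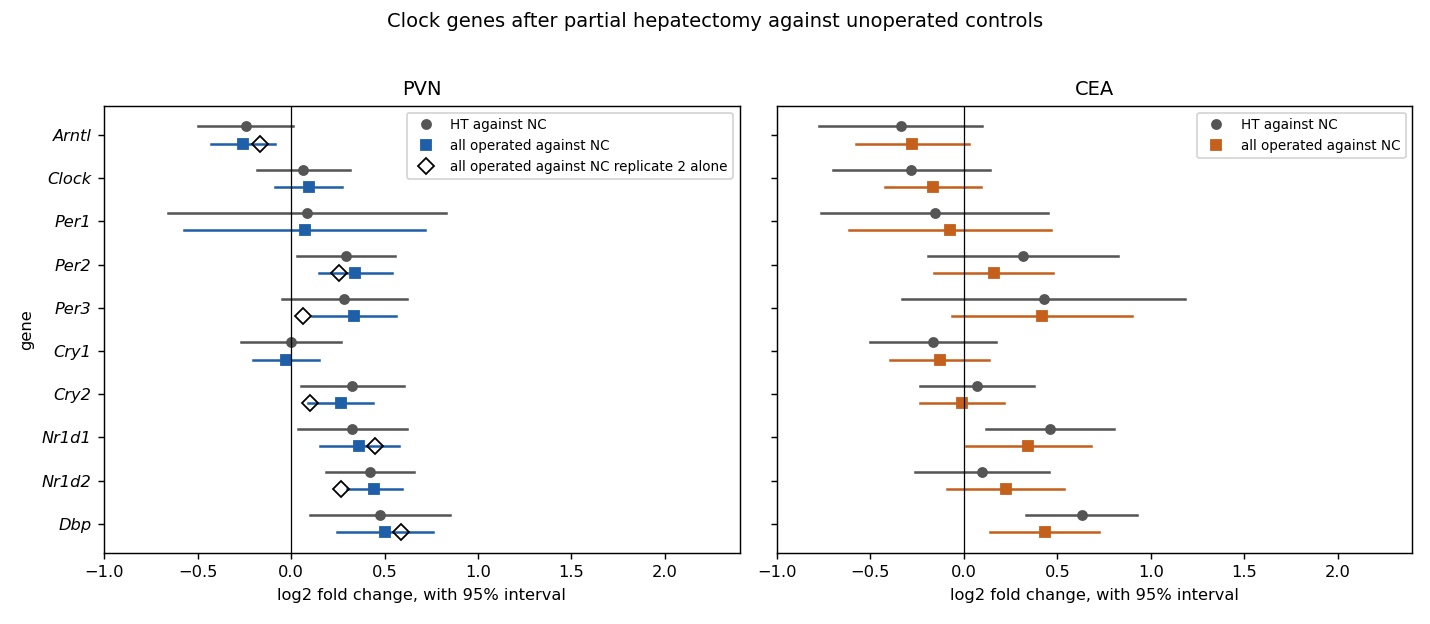
Log2 fold change against NC with its 95% interval (horizontal axis) for each clock gene (vertical axis), for HT alone (circles, 3 against 3 libraries) and all operated libraries (squares, 9 against 3), in PVN (left) and CEA (right). Open diamonds, drawn for the 7 PVN genes with an unadjusted p under 0.05, use NC replicate 2 as the only control; *Dbp* stays at 0.59 and *Per3* lies near 0.07.

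The *Nr1d2* fold change was stable to single libraries (0.37 to 0.54 with each left out), while its adjusted p crossed the threshold. The number of members called in the PVN was 7 without NC replicate 2, a fit that called 33.7% of all genes, and 0 without any one of the other 11 libraries. With NC replicate 2 as the only control, a fit that assumes this library varies like the other groups, 0 members were called and the log2 fold changes were 0.59 for *Dbp*, 0.45 for *Nr1d1*, 0.27 for *Nr1d2*, 0.25 for *Per2*, 0.10 for *Cry2*, 0.07 for *Per3* and -0.17 for *Arntl*. NC replicate 2 held the lowest NC value of *Dbp* and of *Nr1d1*. DESeq2 called all 7 genes beside 16.7% of all genes, and edgeR with RLE size factors called 0.

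HT against NC was the narrower comparison, of operated rats without needles. No sham operation was described for NC rats, so hepatectomy and anesthesia cannot be told apart. The comparison gave 0 of 10 members with an edgeR adjusted p under 0.05 (background 0.012%) and 0 with DESeq2. At an unadjusted p under 0.05 it gave 5 (background 11%). These 5 were *Nr1d2* (log2 fold change 0.42, SE 0.102), *Dbp* (0.48, SE 0.161), *Cry2* (0.33, SE 0.118), *Nr1d1* (0.33, SE 0.125) and *Per2* (0.29, SE 0.112), each with an edgeR adjusted p of 0.418. *Dbp* was at 0.26 without HT replicate 2, *Cry2* at 0.21 without NC replicate 1 and *Per2* at 0.19 without NC replicate 3. Without NC replicate 2 the test called 3, *Per3*, *Cry2* and *Nr1d2*, beside 20.2% of all genes. The other 5 members lay between -0.24 and 0.28. *Arntl* did not overlap between HT and NC, and neither did *Per2*, *Cry2*, *Nr1d2* or *Dbp*, 5 of 10 members beside 17.1% of genes tested.

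No clock gene of the PVN passed the test between the operated groups, and the intervals allow moderate differences. For EA against HT, edgeR and DESeq2 each called 0 members (background of edgeR 0.0961%), and 1 had an unadjusted p under 0.05 (background 5.67%). That was *Cry2*, at 93.6, 101.8 and 91.7 CPM in EA against 104.5, 108.1 and 105.6 CPM in HT, without overlap, as for 11.3% of genes (log2 fold change -0.15, SE 0.0567, edgeR adjusted p = 0.800). The other 9 members lay between -0.09 and 0.13; apart from *Per1*, their intervals spanned at most -0.35 to 0.37. SEA against HT and EA against SEA gave 0 calls by either tool (background 0% in both by edgeR) and 0 unadjusted (backgrounds 4.38% and 5.21%), with log2 fold changes from -0.06 to 0.14 and from -0.16 to 0.15. *Nr1d2* was higher in every SEA library than in every HT library, 1 of 10 members beside 9.84% of genes without overlap. A single test for any difference among the 4 PVN groups called 0 members (background 0%), 7 unadjusted (background 14.3%) and 2 with DESeq2, *Nr1d2* and *Dbp* (background of DESeq2 2%).

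In the CEA, *Dbp* and *Nr1d1* had the largest differences between HT and NC, and neither passed the adjusted test in edgeR. *Dbp* was at 181.4, 184.7 and 171.0 CPM in NC, 251.7, 291.0 and 275.2 CPM in HT, 162.0, 229.4 and 245.9 CPM in EA, and 230.0, 283.5 and 211.4 CPM in SEA. All but 1 of the operated libraries were above NC, the exception being EA replicate 1. *Nr1d1* was at 47.2, 49.996 and 54.7 CPM in NC, 58.2, 70.0 and 77.9 CPM in HT, 56.2, 41.6 and 69.2 CPM in EA, and 68.6, 78.7 and 59.3 CPM in SEA. EA replicate 2 was the only operated library below the highest NC library. HT against NC gave log2 fold changes of 0.63 for *Dbp* (SE 0.129, a 1.55-fold difference) and 0.46 for *Nr1d1* (SE 0.147), both with an edgeR adjusted p of 0.918. That was 0 of 10 members called (background 0%) and 2 at an unadjusted p under 0.05 (background 3.75%); DESeq2 called *Dbp* alone of the members (background of DESeq2 0.146%). *Dbp*, *Nr1d1* and, downward, *Cry1* did not overlap between these groups, 3 of 10 members beside 10.4% of genes.

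*Arntl* in the CEA was at 43.8, 31.7 and 45.9 CPM in NC and 26.5 to 39.9 CPM after surgery, with the low NC value in the library that held choroid plexus transcripts. Over all operated libraries its log2 fold change was -0.28 (95% interval -0.58 to 0.03), close to the PVN value, and -0.49 without the 3 libraries that held choroid plexus transcripts (edgeR adjusted p = 0.9997). *Dbp* and *Nr1d1* over all operated libraries were at 0.43 (SE 0.133) and 0.35 (SE 0.152), each with an edgeR adjusted p of 0.9998. The count was again 0 by edgeR (background 0%) and by DESeq2 and 2 unadjusted (background 2.82%). Without those 3 libraries the values were 0.48 and 0.31. All members but *Per1* and *Cry2* had a larger coefficient of variation over 12 libraries than in the PVN, *Per3* for example 25.7% against 14.1%. *Per3* was at 65.7, 24.3 and 40.4 CPM in HT against 35.0, 34.1 and 29.6 CPM in NC, and *Per2* at 46.2, 25.7 and 35.3 CPM against 31.2, 26.8 and 29.6 CPM. HT replicate 1 was the highest library of the region for both genes and HT replicate 2 the lowest.

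*Nr1d2*, the gene called in the PVN, was at 89.9, 104.6 and 109.5 CPM in CEA NC, 104.8, 93.2 and 122.4 CPM in HT, 91.1, 151.4 and 124.5 CPM in EA, and 121.2, 123.9 and 133.2 CPM in SEA. Its log2 fold change over operated libraries was 0.22 with an interval of -0.09 to 0.54, which includes both 0 and the PVN value, and it was 0.32 without the choroid plexus libraries. EA against HT and SEA against HT called 0 members with edgeR (background 0%) and DESeq2 and 0 unadjusted (backgrounds 3.19% and 3.07%). *Dbp* nevertheless did not overlap between EA and HT, the EA libraries being lower (log2 fold change -0.38, 95% interval -0.81 to 0.06; -0.22 without EA replicate 1, a library with choroid plexus transcripts), as was the case in either direction for 9.57% of genes. Marker genes of central amygdala and striatum were also lower in every EA library, at 3006 to 4132 CPM against 4677 to 6881 CPM in HT, as were those of cortical and hippocampal excitatory neurons, at 604 to 1395 CPM against 1945 to 2131 CPM, and their part in the *Dbp* difference was not tested. EA against SEA gave 0 calls by either tool (background 0%) and 1 unadjusted (background 1.99%), *Cry1*, at 24.7, 34.0 and 23.1 CPM against 19.2, 19.8 and 21.4 CPM, without overlap, as for 6.83% of genes (log2 fold change 0.45, SE 0.162, edgeR adjusted p = 0.9999). Without EA replicate 2, the library low in mitochondrial counts, the value was 0.26. For any difference among the 4 CEA groups, edgeR and DESeq2 called 0 members (background 0%) and *Dbp* alone had an unadjusted p under 0.05 (background 3.33%).

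The effect of surgery was compared between the regions as an interaction. Of the 10 genes, 0 differed by edgeR or DESeq2 in the HT effect, the EA effect or the effect over all operated libraries (background 0% in each). At an unadjusted p under 0.05 the counts were 0, 0 and 1 (backgrounds 12.1%, 4.52% and 14.6%). The 1 was *Cry2*, whose CEA effect was lower by 0.28 on the log2 scale than its PVN effect (-0.01 and 0.26, SE of the difference 0.127, edgeR adjusted p = 0.325), and the difference was -0.17 without PVN NC replicate 1. For *Nr1d2* the difference was -0.23 with an interval of -0.56 to 0.11.

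The regions themselves differed in 5 of the 10 clock genes, beside 56.3% of all 17768 genes tested, and all 5 were higher in the CEA, beside 26.9% of genes in that direction. *Dbp* was 1.57-fold higher in the CEA (log2 fold change 0.65, SE 0.0786, edgeR adjusted p = 2.16e-07), at 226 ± 44.8 CPM against 144 ± 28.0 CPM (SD, n = 12 each). *Cry2* was 1.39-fold higher (0.47, SE 0.0575, edgeR adjusted p = 2.10e-07), and it was the 1 member with no overlap between regions, at 111.2 to 148.9 CPM in the CEA and 70.4 to 108.1 CPM in the PVN, beside 14.3% of genes. *Arntl* was 1.31-fold higher (0.39, SE 0.0684, edgeR adjusted p = 3.72e-05). *Cry1* (0.29, SE 0.0725, edgeR adjusted p = 0.00144) and *Nr1d1* (0.22, SE 0.0832, edgeR adjusted p = 0.0283) were higher by less.

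The remaining 5 members did not pass the test. *Per1* was at 0.33 (SE 0.168, edgeR adjusted p = 0.103), *Per2* at -0.17 (SE 0.0779, edgeR adjusted p = 0.0616), *Per3* at -0.12 (SE 0.102, edgeR adjusted p = 0.346), *Clock* at 0.05 (SE 0.0660, edgeR adjusted p = 0.545) and *Nr1d2* at -0.01 (SE 0.0691, edgeR adjusted p = 0.929). *Nr1d2* changed sign under 13 of 33 alternatives, so no direction can be given for it. The *Nr1d1* call was lost, at 0.19 to 0.20 and adjusted p-values of 0.0550 to 0.0568 in edgeR, without PVN HT 3, PVN SEA 3, CEA HT 3, CEA EA 3 or CEA SEA 2. *Per1* was called without PVN HT 3 or PVN SEA 3 (0.41 and 0.43), *Per2* without CEA NC 1 or CEA HT 1 (-0.19 and -0.23) and *Per3* without CEA HT 1 (-0.21). Within single treatments, *Dbp* and *Cry2* were called in all 4, at 0.51 to 0.88 and 0.41 to 0.68, and 2 members were called among NC libraries, 2 among HT, 3 among EA and 4 among SEA, beside 26.4%, 21.3%, 27.8% and 30.5% of all genes. *Cry1* was called in EA alone, at 0.59, and was at 0.37, 0.23 and 0.06 within NC, HT and SEA, and *Arntl* was called in SEA alone, at 0.51, and was at 0.34 to 0.41 within the others. *Nr1d1* was the fourth call in SEA, at 0.39, and was at 0.24, 0.40 and -0.06 within NC, HT and EA; in CEA EA replicate 2 it had its lowest CEA level. In bulk tissue, a cell type present in another proportion and another level per cell cannot be told apart. Oligodendrocyte genes, for example, summed to 10221 to 17057 CPM in the PVN and 26978 to 44547 CPM in the CEA, and their part in these differences was not tested.

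**Figure D3:**
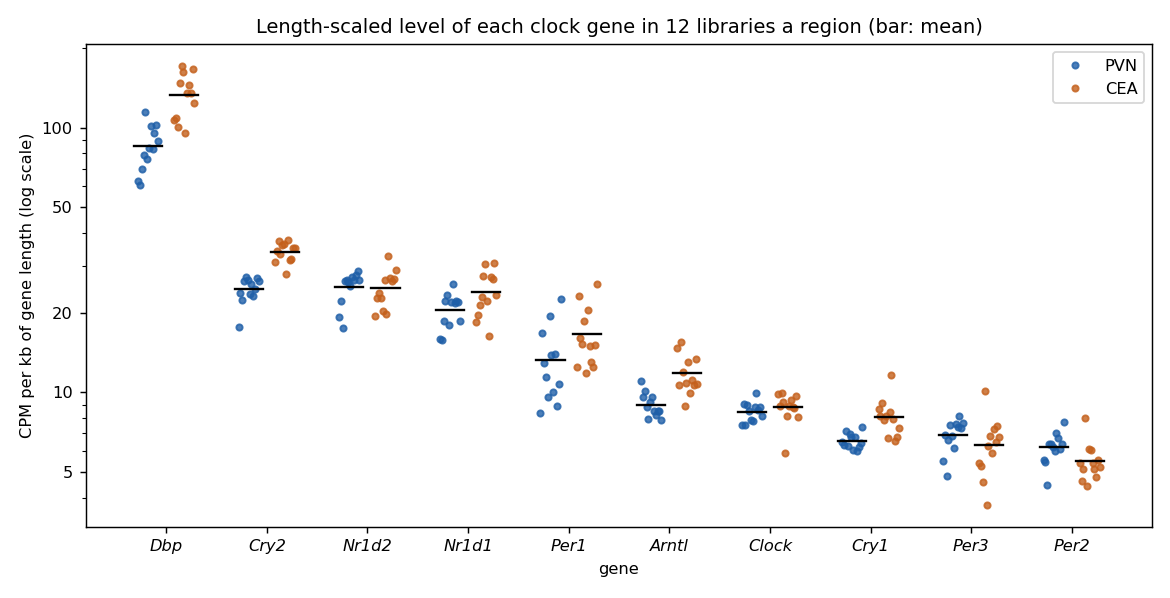
Level of each clock gene per kb of gene length (vertical axis, log scale, CPM per kb) in the 12 PVN and 12 CEA libraries, 1 point per library, with the mean as a bar; genes are ordered by their mean. *Dbp* is the highest in both regions and *Per2* the lowest.

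Scaled by gene length, the order of levels could be compared between genes. *Dbp* led in both regions, with 84.9 CPM per kb in the PVN and 133 CPM per kb in the CEA, and its lowest library was above the highest library of any other member. *Nr1d2* and *Cry2* followed in the PVN at 25.0 and 24.5 CPM per kb, within each other's range, and *Nr1d1* at 20.5 CPM per kb overlapped with both. In the CEA *Cry2* was second at 33.9 CPM per kb, before *Nr1d2* at 24.8 and *Nr1d1* at 23.9 CPM per kb. *Per1* had means of 13.2 and 16.6 CPM per kb. The lower end was held in both regions by *Arntl* (8.99 and 11.8 CPM per kb), *Clock* (8.47 and 8.79 CPM per kb), *Cry1*, *Per3* and *Per2* (6.21 and 5.49 CPM per kb). Neighbors in this order overlapped from *Cry2* downward, whereas *Arntl* and *Per2* did not overlap in either region. *Per1* was also the most variable member of the PVN, with a coefficient of variation of 33.4% over 12 libraries, and *Cry1* the least, at 6.73%.

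Relations between members were examined over the 12 libraries of each region, for 9 pairs taken from the arrangement of the loop. With a two-sided permutation test and adjustment over the 18 relations, 5 were called in the PVN and 3 in the CEA. The share of gene pairs that pass in these libraries was not computed, so the counts are not shown to be particular to clock genes. Fewer were called in deviations from group means. Those deviations were permuted over all 12 libraries although a group's values are tied by its mean, so their p-values are probably too small. *Nr1d1* and *Dbp*, both targets of ARNTL and CLOCK, went together in the PVN (r = 0.84, permutation p = 0.00073, adjusted p = 0.0101; rho = 0.79, permutation p = 0.00347, adjusted p = 0.0479). The relation was also there in deviations from the group means (r = 0.77, permutation p = 0.00261) and without the 2 most extreme libraries (r = 0.67, permutation p = 0.0371). In the CEA r was 0.66 (permutation p = 0.0216, adjusted p = 0.0486; rho = 0.76, permutation p = 0.00532, adjusted p = 0.0479), 0.81 without the 2 most extreme libraries and 0.31 in deviations from group means (permutation p = 0.333).

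*Arntl* and *Dbp* went in opposite directions in the PVN (r = -0.79, permutation p = 0.00202, adjusted p = 0.0101; rho = -0.72, permutation p = 0.0112, adjusted p = 0.0502). Without the 2 most extreme libraries r was -0.70 (permutation p = 0.0239). In deviations from group means it was -0.41 (permutation p = 0.186), so the pooled value rested in part on the separation of NC from the operated groups. In the CEA r was -0.55 (permutation p = 0.0675, adjusted p = 0.110; rho = -0.40, permutation p = 0.201, adjusted p = 0.328).

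**Figure D4:**
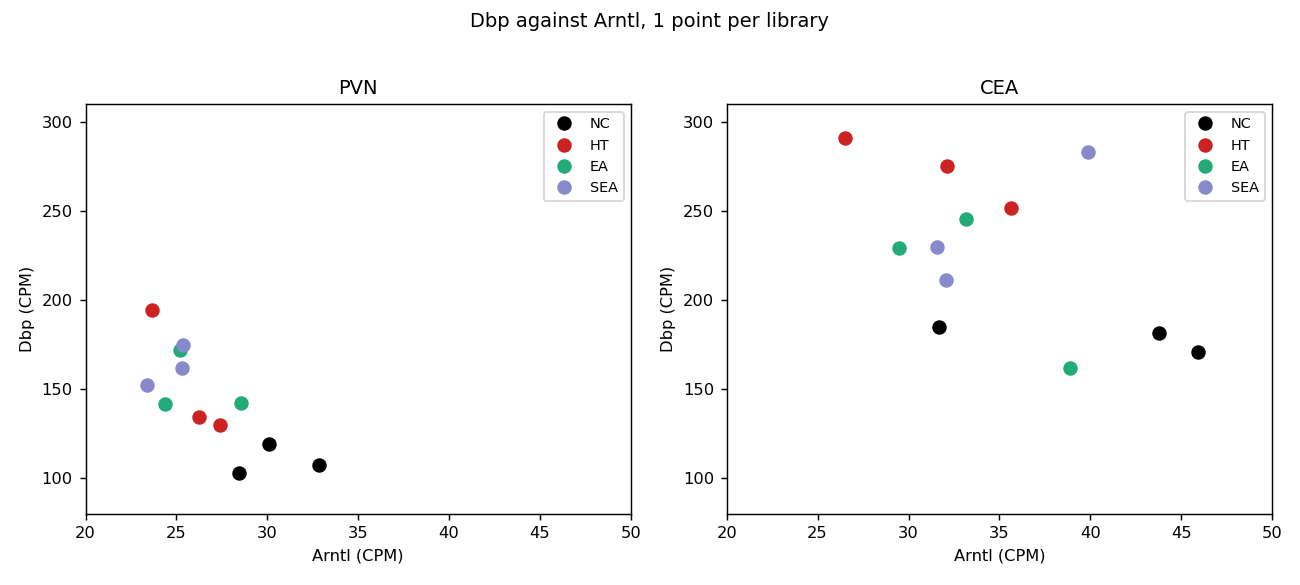
*Dbp* (vertical axis, CPM) against *Arntl* (horizontal axis, CPM), 1 point per library, colored by treatment, in PVN (left) and CEA (right). In the PVN the 3 NC libraries lie below all others in *Dbp*, at 103.0 to 119.2 CPM.

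*Per2* and *Per3*, paralogous repressors, went together in both regions. In the PVN r was 0.80 (permutation p = 0.00225, adjusted p = 0.0101; rho = 0.65, permutation p = 0.0263, adjusted p = 0.0675) 0.58 without the 2 most extreme libraries (permutation p = 0.0792) and 0.53 in deviations from group means (permutation p = 0.076). In the CEA r was 0.77 (permutation p = 0.005, adjusted p = 0.018; rho = 0.66, permutation p = 0.0234, adjusted p = 0.0675), but 0.32 without the 2 HT libraries farthest from the median (permutation p = 0.365), so the relation rested on those libraries, and 0.89 in deviations from group means (permutation p = 0.00492), which include them. *Arntl* and *Clock*, the binding partners, went together in the CEA (r = 0.74, permutation p = 0.00188, adjusted p = 0.0101; rho = 0.72, permutation p = 0.0111, adjusted p = 0.0502), also in deviations from group means (r = 0.67, permutation p = 0.0112) and without the 2 most extreme libraries (r = 0.70, permutation p = 0.019). In the PVN their r was -0.60 (permutation p = 0.0383, adjusted p = 0.0689; rho = -0.48, permutation p = 0.116, adjusted p = 0.220), -0.63 in deviations from group means (permutation p = 0.0312) and -0.26 without the 2 most extreme libraries (permutation p = 0.465); the difference between regions was not tested.

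*Nr1d1* and *Nr1d2* (r = 0.65, permutation p = 0.0205, adjusted p = 0.0486; rho = 0.58, permutation p = 0.0525, adjusted p = 0.118) and *Per3* and *Dbp* (r = 0.66, permutation p = 0.0198, adjusted p = 0.0486; rho = 0.67, permutation p = 0.0208, adjusted p = 0.0675) were called in the PVN. Both were near 0 in deviations from group means, at -0.10 and 0.11. *Arntl* and *Nr1d1*, the gene and its repressor, did not pass in the PVN (r = -0.63, permutation p = 0.0301, adjusted p = 0.0602; rho = -0.48, permutation p = 0.122, adjusted p = 0.220; -0.22 in deviations from group means) or in the CEA (r = -0.15, permutation p = 0.636, adjusted p = 0.674; rho = -0.08, permutation p = 0.801, adjusted p = 0.801; 0.25 in deviations). *Per1* was related to *Per2* in neither region (r = 0.21 in the PVN and -0.21 in the CEA, permutation p = 0.521 and 0.528), nor *Cry1* to *Cry2* (r = 0.22 and 0.18, permutation p = 0.520 and 0.573); in deviations from group means the CEA value of *Cry1* and *Cry2* was 0.61 (permutation p = 0.0339). Each of these 4 relations had an adjusted p of 0.674, and an absence of relation is not shown by 12 libraries.

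Outside the 10 genes, those whose log2 CPM followed *Dbp* most closely over the 12 PVN libraries, among 11800 genes, were *Glrb* (r = 0.87), *Ajm1* (r = 0.84) and *Wnt7b* (r = 0.83). For *Arntl* in the PVN they were *Tra2b* (r = 0.94), *Dph7* (r = 0.92) and *Mical1* (r = 0.92). In the CEA they were *Cwc27*, *Aldh1b1* and *Dtnbp1* for *Dbp* (r = 0.80, 0.80 and 0.79) and *Elavl1*, *Htr1b* and *Prpf8* for *Arntl* (r = 0.92, 0.91 and 0.90). None of these genes was named in both regions, and the values are the extremes among all genes compared in the same libraries.

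A further 28 clock-associated genes of the table were counted alongside. In the PVN, 14 of the 27 tested had an unadjusted p under 0.05 for operated against NC, 11 higher and 3 lower, beside 29.8% of all genes, and 0 passed the adjusted edgeR test, with a median log2 fold change of 0.17 (all genes tested, -0.02). The D-box factors related to DBP were both on the higher side. *Tef* was at 198.9, 226.0 and 200.6 CPM in NC and 253.9 to 273.2 CPM after surgery (log2 fold change 0.32, SE 0.0537, edgeR adjusted p = 0.0772), and *Hlf* at 6.01, 10.6 and 7.74 CPM in NC and 11.9 to 18.9 CPM after surgery (0.88, SE 0.189, edgeR adjusted p = 0.0772). *Bhlhe41*, another repressor of ARNTL and CLOCK (0.39, SE 0.0890, edgeR adjusted p = 0.0772), and the deubiquitinase gene *Usp2* (0.66, SE 0.173, edgeR adjusted p = 0.0778) completed the 4 with the smallest p. With NC replicate 2 as the only control these were 0.20 for *Tef*, 0.49 for *Hlf*, 0.13 for *Bhlhe41* and 0.38 for *Usp2*. Without that library all 4 were called, at 0.39, 1.13, 0.53 and 0.83, beside the 33.7% of all genes given above. For HT against NC, 5 of 26 were higher at an unadjusted p under 0.05 and 0 lower, beside 11% of all genes. The 3 with the smallest p were *Hlf* (log2 fold change 1.03, SE 0.228), *Tef* (0.33, SE 0.0849) and *Usp2* (0.77, SE 0.217), each with an edgeR adjusted p of 0.418. All 3 were called without NC replicate 2 (1.27, 0.39 and 0.93, background 20.2%). Without NC replicate 1 each had an edgeR adjusted p of 0.801. *Tef*, *Hlf* and *Bhlhe41* also had the smallest p for any difference among the 4 PVN groups (edgeR adjusted p = 0.346 each). In the CEA 0 of 26 such genes had an unadjusted p under 0.05, beside 2.82% of all genes, with a median of -0.03 (all genes tested, -0.0011). The CEA effect of surgery over all operated libraries was lower than the PVN effect by 1.24 on the log2 scale for *Hlf* (SE 0.277), 0.39 for *Csnk1a1* (SE 0.117), a clock kinase like GSK3B, and 1.12 for *Gsk3b* (SE 0.372), each with an edgeR adjusted p of 0.233. Without PVN NC replicate 2 all 3 were called, at -1.48, -0.55 and -1.77, beside 9.95% of all genes. Without PVN NC replicate 1 each had an edgeR adjusted p of 0.813. *Hlf* was lower also in the HT effect, by 1.32 (SE 0.353, edgeR adjusted p = 0.413). It was called without PVN NC replicate 2, at -1.56, beside 3.93% of all genes. Without PVN NC replicate 1 its edgeR adjusted p was 0.758. Between the regions 17 of 27 passed, 8 higher and 9 lower in the CEA, beside 56.3% of all genes. *Npas2*, a paralog of *Clock*, was 2.94-fold higher in the CEA (log2 fold change 1.56, SE 0.0845, edgeR adjusted p = 4.02e-13), and *Usp2* was 2.24-fold (1.16, SE 0.105), *Ppp1ca*, a phosphatase catalytic subunit, 1.82-fold (0.86, SE 0.0762) and *Tef* 1.44-fold higher (0.53, SE 0.0540), with edgeR adjusted p-values of 1.66e-09, 1.25e-09 and 1.59e-08.

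Other lists were counted in the same surgery comparison. In the PVN, immediate early genes, which mark recent neuronal activity, had 6 of 17 members lower at an unadjusted p under 0.05 and 0 higher, beside 29.8% of all genes in either direction (median log2 fold change -0.37), and summed to 320 to 415 CPM in NC and 216 to 413 CPM after surgery; 1 passed the adjusted edgeR test. In the CEA 10 of 17 were lower and 0 higher, beside 2.82% of all genes (median -0.82), at 575 to 806 CPM in NC and 362 to 625 CPM after surgery. Of 17 genes that respond to glucocorticoids, 2 were higher at an unadjusted p under 0.05 in each region and 0 lower, beside the same 29.8% and 2.82%, and their sums overlapped, at 418 to 630 CPM in PVN NC and 396 to 1534 CPM after surgery and at 795 to 1129 and 711 to 3092 CPM in the CEA. Genes of the suprachiasmatic nucleus, the central pacemaker that lies near the PVN, had 3 of 10 higher and 1 lower in the PVN, again beside 29.8%, and summed to 100 to 179 CPM in NC and 150 to 236 CPM after surgery. Of its defining genes, *Six6* was at 5.14 to 6.45 CPM in NC and 2.65 to 6.35 CPM after surgery, *Vip* at 7.78 to 9.76 and 5.31 to 12.996 CPM, and *Prok2* at 0.119 to 1.04 CPM over all 12 PVN libraries. *Zfhx3* was at 20.6 to 58.3 CPM in NC and 40.9 to 70.6 CPM after surgery, *Syt10* at 3.93 to 12.2 and 9.96 to 13.9 CPM and *Prokr2* at 1.07 to 1.59 and 1.55 to 2.79 CPM, with NC and operated ranges overlapping for all 3, as they did for *Grp*, *Six3*, *Lhx1* and *Rgs16*. In the CEA *Six6* was at 0 in all 3 NC libraries and at most 0.188 CPM after surgery. The part of these lists in the clock gene differences was not tested.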

How the data were processed

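Strand-specific mRNA libraries were sequenced from the PVN and CEA. The deposited table holds raw counts of reads for each gene, not normalized; the authors mapped filtered reads with HISAT2 and counted them with featureCounts, versions not given in the sources used here. As the genome, mRatBN7.2 is given in the methods, while the submitters' processing notes list GRCh38 and hg38, and the table's largest gene end on chromosome 1 is 282724300, which exceeds the length of the mRatBN7.2 chromosome, so the build of the printed gene positions is uncertain. The table also gives a gene length, used here for CPM per kb. It held 1 stray second header line, left out here, in which CEA EA replicates 2 and 3 are exchanged; groups and replicate numbers follow the sample titles. No 2 libraries were identical.

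Each comparison was fitted to the counts of its own groups over all genes with edgeR 4.0.16 in R 4.3.3 (filterByExpr, TMM, quasi-likelihood test, two-sided, Benjamini-Hochberg, threshold 0.05). Intervals are 95% intervals from the fit. Operated means HT, EA and SEA together. Alternatives were DESeq2 1.42.0, RLE size factors, no count filter, mitochondrial transcripts left out, a replicate block, 4 groups in one fit, single treatments, and each library left out; the fits with NC replicates 1 and 3 or the choroid plexus libraries left out, and the relations of *Per1* with glucocorticoid genes, were added after seeing the data. Correlations used log2 CPM (prior count 2) and 100000 permutations in Python 3.11.15 (numpy 2.4.6). Scripts were tested on simulated data. Members, lists and pairs were chosen with earlier results of these data known.

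The rule for named genes gives all 10 members, with full statistics at an unadjusted p under 0.05 (all 10 between regions), up to 4 other clock genes per comparison at an unadjusted p under 0.01, the 3 genes most like *Dbp* and *Arntl* at 5 CPM or more, and up to the 3 most abundant genes per marker list. *Six6*, *Vip*, *Prok2*, *Syt10*, *Prokr2*, *Grp*, *Six3*, *Lhx1*, *Prkcd*, *Sgk1*, *Fkbp5* and *Pdk4* were named after their values were seen. 1 count was worth 0.0537 to 0.0760 CPM; this limit covers counting error only.

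Same-numbered libraries deviated together in CEA NC and CEA HT (correlations 0.18 to 0.29), as in PVN NC and CEA NC (0.13 to 0.29). By the lowest correlation, PVN SEA and CEA SEA came next (0.03 to 0.19).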

Additional observations from a re-analysis of the deposited data

How the results depend on the processing

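Of the surgery comparisons in the PVN, operated against NC was the one most dependent on settings. From 1 member in edgeR, the count was 7 at an unadjusted p under 0.05, 7 with DESeq2, 0 with RLE size factors, 0 with the replicate block, and 0 when NC replicates 1 and 3 were left out; leaving out single libraries gave 0 to 7. For HT against NC the count was 5 unadjusted, and 0 to 3 over single libraries left out. For any difference among the 4 PVN groups it was 7 unadjusted, 2 with DESeq2 and 0 to 3 with libraries left out. EA against HT in the PVN gave 1 unadjusted. In the CEA, HT against NC gave 2 unadjusted and 1 with DESeq2, operated against NC 2 unadjusted, EA against SEA 1 unadjusted, any difference 1 unadjusted, and the region difference in the operated effect 1 unadjusted. CEA against PVN gave 2 in NC alone, 2 in HT alone, 3 in EA alone and 4 to 7 with libraries left out. The relations gave 8 pooled, 2 in deviations from group means, where p-values are probably too small, and 3 to 10 with libraries left out. Except for the alternatives that use fewer libraries, the cause was not tested.

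Same-numbered libraries deviated together for CEA HT against NC and, between the regions, for the NC libraries. There the block changed no count (0 members for CEA HT against NC, 5 for CEA against PVN). HT and NC rats were different animals, so such correlations do not show that libraries were paired. Of the comparisons between other groups, the block moved the PVN operated count alone.

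Reversals were confined to CEA against PVN among the 44 gene results and 973 alternatives: *Per2* in HT alone (0.0143), *Clock* in HT alone (-0.0733), *Nr1d1* in EA alone (-0.0563), and *Nr1d2*, at -0.01 in edgeR, with 0.0152 by DESeq2, 0.0153 by RLE, 0.0174 unfiltered, 0.16 in NC alone, 0.0351 in EA alone, 0.0066 in SEA alone and -0.0469 to 0.0281 without single libraries. Of the rest, 893 kept direction and side of the threshold, 27 lost the call and 37 gained it. CEA against PVN entered all 10 members, whatever their p. Other comparisons entered members only at an unadjusted p under 0.05, so few reversals could arise there, and their absence is no measure of stability.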

Other observations

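*Per1* was the member that varied most in the PVN, and its level was read against the 17 genes of the glucocorticoid list after its values were seen. Over the 12 PVN libraries all 17 correlations were positive (r from 0.33 to 0.91, median 0.70), and 10 passed a two-sided permutation test adjusted over the 34 relations of both regions. In the CEA 16 of 17 were positive (r from -0.04 to 0.84, median 0.56) and 3 passed. In deviations from group means all 17 were positive in each region (medians 0.78 and 0.62). The share of all genes related to *Per1* in these libraries was not computed, so the counts are not shown to be particular to this list.

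Of the list, *Pdk4*, a kinase gene of fuel metabolism, had the highest r with *Per1* over all libraries of each region. It was not the highest in every check, as the *Sgk1* value below shows. In the PVN r was 0.91 (permutation p = 9e-05, adjusted p = 0.00187; rho = 0.92, permutation p = 9e-05, adjusted p = 0.00306) and 0.84 without the 2 most extreme libraries (permutation p = 0.00186). In the CEA r was 0.84 (permutation p = 0.00078, adjusted p = 0.0053; rho = 0.87, permutation p = 0.00053, adjusted p = 0.00725) and 0.80 without the 2 most extreme libraries (permutation p = 0.00542).

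*Sgk1*, a kinase gene induced by corticosteroids, was at 24.8, 99.5 and 81.5 CPM in PVN NC, 24.1, 30.6 and 211.2 CPM in HT, 110.8, 48.0 and 147.6 CPM in EA, and 46.4, 65.3 and 193.2 CPM in SEA. HT replicate 3 and SEA replicate 3, its highest libraries, were also the highest for *Per1*, at 78.5 and 91.4 CPM. The relation had r = 0.87 in the PVN (permutation p = 0.00019, adjusted p = 0.00215) and rho = 0.86 (permutation p = 0.00064, adjusted p = 0.00725). Without NC replicate 1 and HT replicate 1, the 2 libraries farthest from the median of *Sgk1*, r was 0.92 (permutation p = 0.00036). HT replicate 3 and SEA replicate 3 stayed in that check. In the CEA it had r = 0.80 (permutation p = 0.00236, adjusted p = 0.00892; rho = 0.71, permutation p = 0.0117, adjusted p = 0.0396) and 0.70 without the 2 most extreme (permutation p = 0.0226). *Fkbp5*, another list member, was at r = 0.58 in the PVN (permutation p = 0.0444, adjusted p = 0.0755) and r = -0.04 in the CEA (permutation p = 0.91, adjusted p = 0.91). The number of relations passing was 13 under RLE size factors and with a prior count of 0.5; it was also 13 with TMM and a prior count of 2.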
